A study of Bos taurus with 4 samples.

Results

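SPP1, which encodes the secreted phosphoprotein osteopontin, and CD44, which encodes a cell surface receptor that binds it, were followed in bovine blastocysts developed from slow-frozen or unfrozen morulae. All probes whose gene symbol in the array's annotation was SPP1 or CD44 were taken, which gave 3 of the 43794 probes of the platform and 2 of the genes it names. SPP1 had 2 probes and CD44 had 1. SPP1 had been picked because its ratio lay low in earlier results from these arrays, and CD44 because it is the receptor. Their ratios between slow-frozen and control embryos are therefore given as a description, without a test.

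Osteopontin is an acidic glycoprotein that cells release into the extracellular matrix and into body fluids. An arginine-glycine-aspartate motif in it is bound by integrins, mainly those built on the alpha v and beta 3 subunits, and thrombin and metalloproteases cut the protein close to that motif. In sheep, progesterone raises its secretion by uterine glands, and it binds integrins of the trophectoderm, the outer cell layer of the blastocyst, and of the uterine lining as the conceptus attaches. CD44 is best known as the receptor of hyaluronan, a long sugar polymer of the matrix. Its messenger RNA is spliced in many ways, its tail is tied to the actin cytoskeleton through ezrin and related proteins, and its outer part can be shed by proteases.

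All embryos were produced in vitro from abattoir oocytes of cattle with the breed label "beef", fertilized with bull semen and cultured to compact morulae. Morulae of the slow-frozen group were cooled gradually in glycerol, stored in liquid nitrogen, warmed and cultured on to expanded blastocysts, and control morulae of the same fertilization cycles were cultured on without freezing. Each of 4 arrays compared 1 slow-frozen pool with 1 control pool, with 7 blastocysts per pool collected 7 days after fertilization by the labels. The slow-frozen pool carried the red dye Cy5 on arrays 1 and 2 and the green dye Cy3 on arrays 3 and 4. The methods of the study give a range of pool sizes, describe the 4 pairs as separate culture cycles, and give a culture time that would place some blastocysts later than the labelled day. The labels of both channels carry "Yes" under cryopreservation, so the groups were taken from the treatment label. Only morulae that reached the expanded blastocyst stage could enter a pool, in either group.

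A probe was called above the detection limit in a channel when its net signal (median spot intensity minus median local background) was higher than that of 95% of the 153 negative control spots in that channel. Between 24638 and 31529 probes passed in a channel, and 30473 probes passed in at least 4 of their 8 readings and were tested. The ratios of the 4 arrays correlated across tested probes between -0.28 (arrays 2 and 4) and 0.04 (arrays 2 and 3). All 6 trophectoderm markers with a probe (CDX2, GATA3, GATA2, KRT8, KRT18 and TFAP2A) were above the limit in all 8 readings, as were 3 of 4 epiblast and 2 of 3 hypoblast markers. With 4 arrays, precision is limited throughout.

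The brighter SPP1 probe was above the limit in all 8 readings, but in the slow-frozen pools only barely. Its net signal in the slow-frozen pools was 120, 75, 193 and 188 on arrays 1 to 4, which was 1.11, 1.04, 1.21 and 1.08 times the limit of the channel. In the control pools the net signal was 301, 617, 330 and 95, or 1.92, 3.60, 1.91 and 2.12 times the limit. Relative to the limit, each control reading thus lay above every slow-frozen reading, as was the case for 60 (0.197%) of the tested probes. SPP1 was chosen for its low ratio on these arrays, so this order follows in part from the choice. The raw signal of array 4 had the opposite order, on an array with a median net signal over all probes of 66 in Cy5 and 205 in Cy3. The same order was seen in the share of probes with a weaker net signal in the channel, which was between 36.6% and 48.6% for the slow-frozen pools and between 59.0% and 77.0% for the control pools. With a stricter limit, the 99th percentile of the negative control spots, 1 of 4 slow-frozen readings and 4 of 4 control readings of this probe remained above it.

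**Figure D1:**
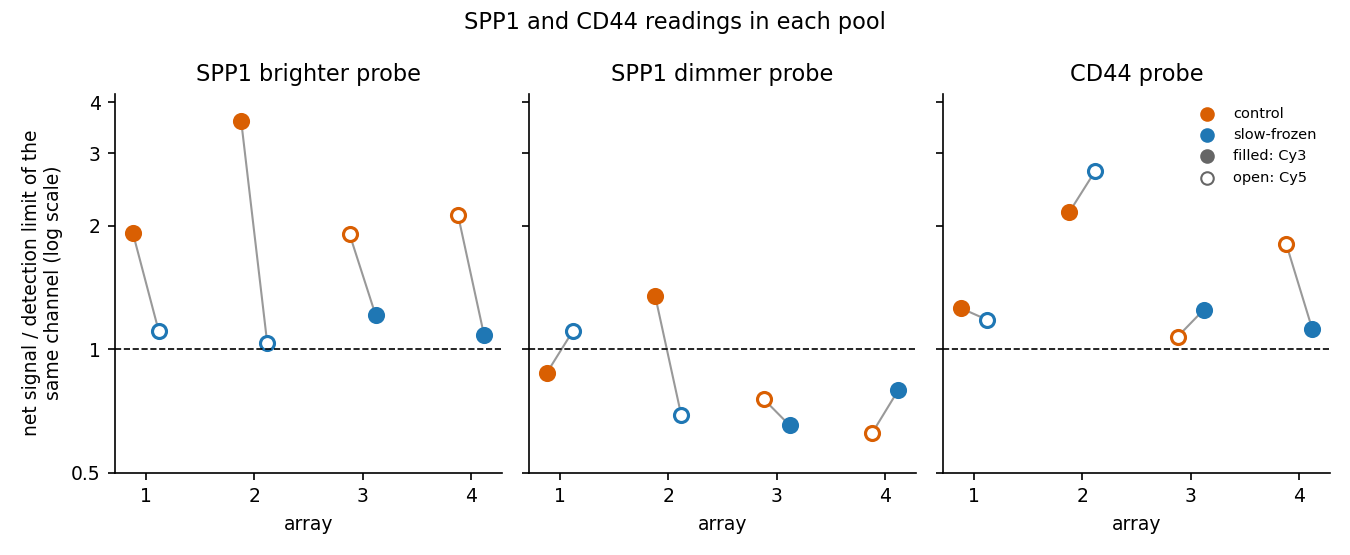
Net signal of the 3 probes divided by the detection limit of the same channel (log scale, vertical axis) on arrays 1 to 4 (horizontal axis). Orange points are control pools, blue points are slow-frozen pools, filled points were read in Cy3 and open points in Cy5, lines join the pools of an array, and the dashed line is the limit. The brighter SPP1 probe lay between 1.04 and 1.21 times the limit in the slow-frozen pools and between 1.91 and 3.60 times in the control pools, whereas the CD44 pools were mixed.

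After loess normalization, the level of this SPP1 probe on the log2 scale was 7.20, 7.09, 7.87 and 7.29 in the slow-frozen pools and 8.07, 9.05, 8.47 and 7.77 in the control pools of arrays 1 to 4. The control pool was the higher of the pair on every array. Across arrays the groups overlapped, since the control pool of array 4 at 7.77 lay below the slow-frozen pool of array 3 at 7.87. Among the tested probes, 104 (0.341%) had all control levels above all slow-frozen levels, and 112 (0.368%) had the reverse. No SPP1 or CD44 probe was among either. The slow-frozen pools averaged 7.36 ± 0.35 (SD, n = 4) and the control pools 8.34 ± 0.55 (SD, n = 4). The spread over the control pools was larger than for 94.4% of tested probes.

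The log2 ratio of slow-frozen over control for the brighter SPP1 probe was -0.87 on array 1, -1.96 on array 2, -0.60 on array 3 and -0.49 on array 4. All 4 ratios were negative, which held for 1182 (3.88%) of the tested probes and follows in part from the choice of SPP1. The mean was -0.98 ± 0.68 (SD, n = 4), a 1.97-fold higher level in the control pools, with a moderated standard error of 0.20 from the fit and of 0.34 from the spread of the 4 ratios alone. The error of the fit draws on the spread of all tested probes and leaves out the difference between the dye orientations. Without the dye term it was 0.25. The arrays with the slow-frozen pool in Cy5 averaged -1.42 and those with it in Cy3 averaged -0.54. The ratio was negative in both orientations. Each orientation held other culture cycles, so that dye and cycle cannot be told apart. In bulk pools such as these, fewer cells that express SPP1 and less SPP1 RNA per cell cannot be told apart.

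Array 2 carried the lowest SPP1 ratio. Leaving out array 1 or array 2 moved the fitted ratio more than leaving out array 3 or array 4. Without array 2 the ratio was -0.71, without array 1 it was -1.25, and without array 3 or array 4 it was -0.95 and -1.01. In all 4 cases the ratio stayed negative. These fits kept the dye term, so that the array left alone in its dye orientation weighed as much as the other pair together. This holds for every fit below that leaves out an array. The spread of the SPP1 ratio over arrays was larger than for 91.5% of tested probes. The 4445 tested probes within 0.25 log2 of its brightness had a median SD over arrays of 0.32, compared with 0.68 for SPP1.

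This probe had the 6th lowest ratio of the 30473 tested probes, which is how it came to be chosen. Over all tested probes, 39 (0.128%) were at least 1.5-fold lower in the slow-frozen pools with an unadjusted p under 0.05, and 84 (0.276%) were higher by the same rule. The brighter SPP1 probe was among the 39, which follows from its choice, and its ratio of -0.37 with mean spot and mean background signals was smaller than 1.5-fold. After Benjamini-Hochberg adjustment in limma, 0 of 30473 probes were below 0.05, and the lowest adjusted p was 1.00, while 573 (1.88%) had an unadjusted p under 0.05. All 4 ratios lay under -0.4 for 7 tested probes (0.023%), SPP1 among them, a bound that was set after the SPP1 values had been seen. Among probes of like brightness, 0.135% had a ratio at least 1.5-fold lower.

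The second SPP1 probe did not repeat this pattern, and it gave little signal to measure. It was above the limit in 2 of 8 readings, the slow-frozen pool of array 1 at 1.11 times the limit and the control pool of array 2 at 1.35 times. The other 6 readings lay between 0.625 and 0.876 times the limit, so the probe was not tested. Its log2 ratio was 0.33, -0.82, -0.13 and 0.24 on arrays 1 to 4, with a mean of -0.09 ± 0.52 (SD, n = 4). On array 2, the only array with the control pool above the limit, it was lower in the slow-frozen pool, as the brighter probe was. On array 1, the only array with the slow-frozen pool above the limit, it was higher in that pool, unlike the brighter probe. Over all 8 readings, each centred on the mean of its dye, the levels of the 2 SPP1 probes had a Pearson r of 0.46, and 89.4% of tested genes had a lower r with the brighter probe. With both SPP1 probes averaged, the mean log2 ratio was -0.54 ± 0.58 (SD, n = 4). Which transcripts of SPP1 each probe reads is not given in the sources used here.

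**Figure D2:**
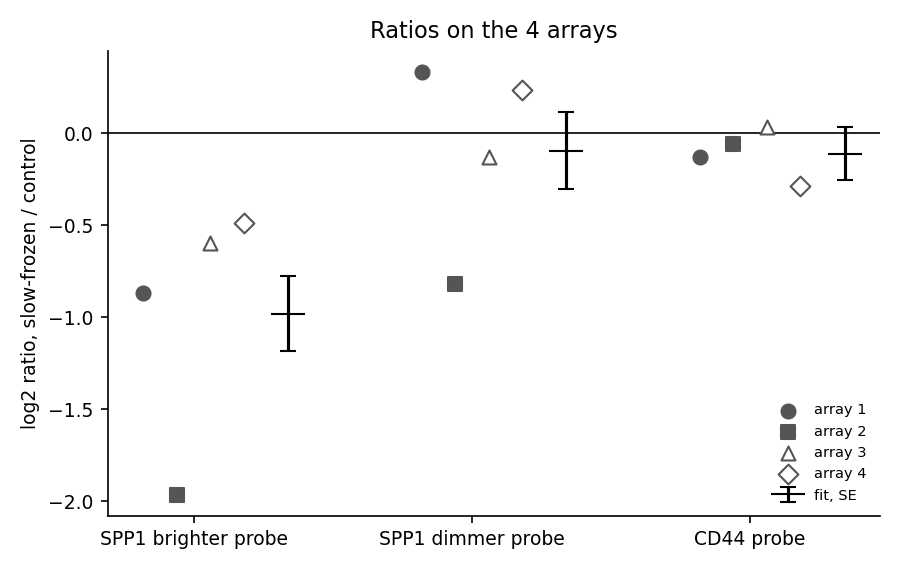
Log2 ratio of slow-frozen over control (vertical axis) for the 3 probes on each array, with filled symbols for arrays 1 and 2 (slow-frozen pool in Cy5) and open symbols for arrays 3 and 4 (slow-frozen pool in Cy3). The bar at the right of each probe is the fitted ratio with its standard error. The brighter SPP1 probe lay between -1.96 and -0.49, the dimmer SPP1 probe on both sides of 0, and the CD44 probe between -0.29 and 0.03.

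The SPP1 ratio of array 3 depended on how the local background was summarised. Around the brighter SPP1 spot on that array the median of the background pixels was 43 in Cy5 and 40 in Cy3, but their mean was 335 in Cy5 and 104 in Cy3. The 14 nearest spots had a median background mean of 45.6 in Cy5, and none exceeded 74.5. The gap between background mean and median was larger than for 98.6% of probes in Cy5 and for 97.0% in Cy3, so that bright pixels lay next to this spot. On arrays 1, 2 and 4 the background mean in Cy5 was between 26.3 and 31.9, within 1 unit of the median.

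When the mean of the pixels was used for both spot and background, the net signal of array 3 was 135 in the slow-frozen pool and 134 in the control pool, and the ratio was 0.01. With the mean spot signal and the median background it was -1.28. In the deposited value table, which uses median signals, it was -1.0, compared with -0.60 in the main setting. For arrays 1, 2 and 4 the ratios with mean signals and mean backgrounds were -0.31, -1.06 and -0.13, all negative but smaller. With the mean background subtracted plainly instead, these arrays were at -0.78, -2.11 and -0.38, and array 3 at 0.05. The mean over arrays with both means was -0.37 ± 0.15 (SE, n = 4 arrays), the smallest of the settings tried, and -0.81 when the mean background was subtracted plainly. Under the setting that gave -0.37, only 3 tested probes passed the thresholds lower and 14 higher, compared with 39 and 84 in the main setting. These settings were added after the background of array 3 had been seen, and whether its bright pixels or the spot signal give the truer value was not tested. Without array 3 altogether the ratio in the main setting was -0.95.

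**Figure D3:**
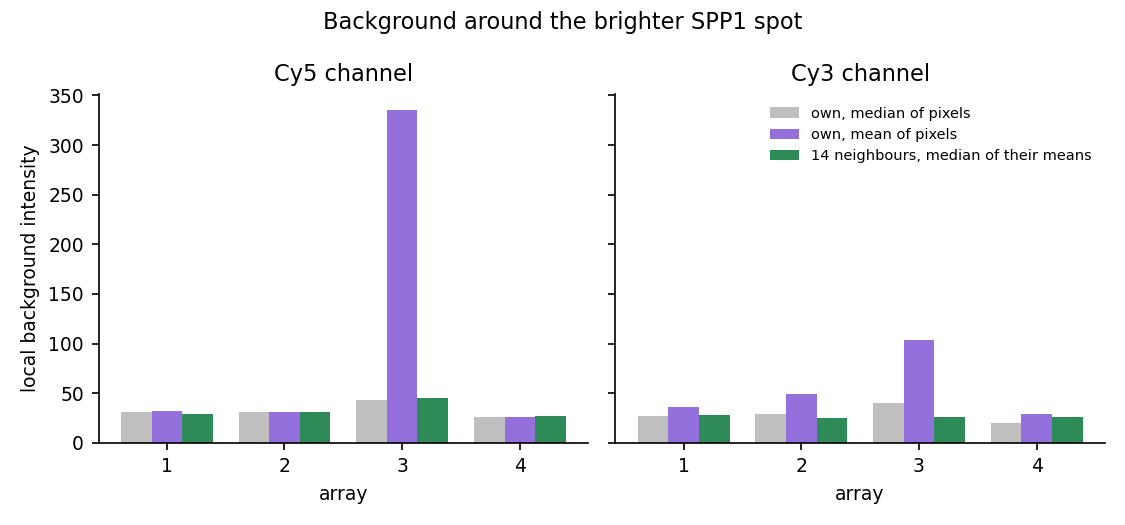
Local background intensity (vertical axis, arbitrary scanner units) around the brighter SPP1 spot on arrays 1 to 4, in Cy5 (left) and Cy3 (right). Grey bars are the median and purple bars the mean of the spot's own background pixels, and green bars are the median of the background means of its 14 nearest spots. On array 3 the mean reached 335 in Cy5 against a median of 43.

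CD44 lay close to the same level in both groups. Its probe was above the limit in all 8 readings, at a net signal of 128, 197, 199 and 195 in the slow-frozen pools and of 197, 370, 186 and 81 in the control pools of arrays 1 to 4. These were 1.18, 2.72, 1.25 and 1.12 times the limit in the slow-frozen pools and 1.26, 2.16, 1.07 and 1.81 times in the control pools. The readings of the groups overlapped, and array 2 had the highest reading in both. At the stricter limit, 2 slow-frozen and 4 control readings remained above it.

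On the normalized log2 scale CD44 was at 7.32, 8.20, 7.44 and 7.34 in the slow-frozen pools and at 7.45, 8.25, 7.40 and 7.63 in the control pools. The log2 ratio was -0.13, -0.06, 0.03 and -0.29 on arrays 1 to 4. The mean was -0.11 ± 0.14 (SD, n = 4; SE of the fit 0.14), a 1.08-fold higher level in the control pools, which is no larger than its error. A lower ratio was found for 22.2% of tested probes. The ratio varied little over arrays, with an SD smaller than that of most tested probes (8.78% had a smaller one), whereas the level itself differed between arrays, with array 2 highest in both groups. The means by dye orientation were -0.09 and -0.13.

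The CD44 spot had a bright neighbour on each array, with intensities between 43739 and 65535 for the brightest of its 14 nearest spots. The gap between the mean and median of its background was larger than for 94.1% to 98.7% of probes in all 8 readings. With the mean spot and mean background signals the ratio was 0.04, and with the plainly subtracted mean background it was -0.05, with array ratios between -0.69 and 0.56. The direction of CD44 therefore changed with this setting, while the ratio stayed between -0.14 and 0.04 in all settings other than the removal of an array. The annotation does not say which of the spliced CD44 forms the probe detects.

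**Figure D4:**
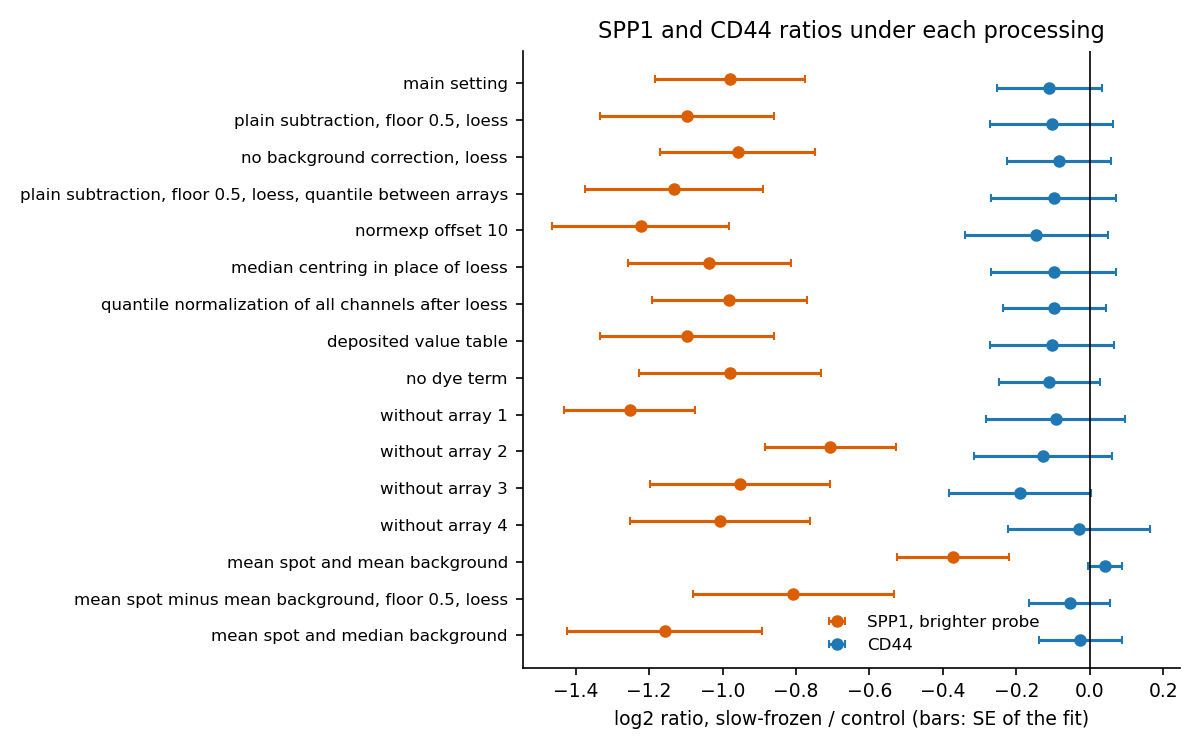
Fitted log2 ratio of slow-frozen over control (horizontal axis, bars are the standard error of the fit) for the brighter SPP1 probe (orange) and the CD44 probe (blue) under each processing, including fits that leave out 1 array. SPP1 lay between -1.25 and -0.37 and CD44 between -0.19 and 0.04.

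The levels of SPP1 and CD44 did not follow each other closely. Over the 8 readings, centred by dye, their Pearson r was 0.30, and 79.1% of tested genes had a lower r with SPP1. The readings share arrays in pairs and are few, so that these values only describe the pools. The genes most like SPP1 by this measure were SPRN, which encodes a relative of the prion protein (r = 0.99), PTCD2, a mitochondrial RNA-processing protein (0.94), NFAT5, the transcription factor of the osmotic stress response (0.93), SEMA7A, a membrane-anchored semaphorin (0.93), and DOCK9, an activator of the GTPase CDC42 (0.93). All had a lower mean level in the slow-frozen pools, with ratios between -0.25 and -0.17, which is smaller than for SPP1. They were chosen for likeness to SPP1, which was lower in the slow-frozen pool on every array. Their direction therefore follows in part from that choice. An r above 0.9 with SPP1 was found for 13 of 11833 genes and with CD44 for 119. Those most like CD44 were FAM171A1 (r = 0.997), the interferon-related IFI27L2 (0.98), the relaxin receptor RXFP1 (0.98), the cold-inducible RNA-binding protein RBM3 (0.97) and PNPLA4 of the patatin-like lipases (0.97), with ratios between -0.26 and 0.02. Several of these genes lay near the limit. SPRN was above it in 4 of 8 readings, NFAT5 and RXFP1 in 5, FAM171A1 and IFI27L2 in 6, and SEMA7A in 7. PTCD2, DOCK9, RBM3 and PNPLA4 were above it in all 8.

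Genes that act around osteopontin and CD44 were grouped by role, 114 genes in all, of which 102 had a probe with their symbol and 83 were tested. Of these, 45 had a ratio below 0 (54.2%, compared with 51.0% of all 11834 tested genes), and their median ratio was -0.01, compared with -0.004 for all genes. At a fold of at least 1.5 with an unadjusted p under 0.05, 1 listed gene was higher and 0 were lower, whereas 20 (0.169%) of all genes were higher and 25 (0.211%) lower. An unadjusted p under 0.05 was found for 3 of the 83 genes and for 226 (1.91%) of all genes, and 0 of either passed the adjustment in limma. With median centring in place of loess, which moved the median of all tested probes to -0.08, 57 of the 83 lay below 0. Whether the list differs from all genes was not tested.

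Of the family of mineral-binding proteins to which osteopontin belongs and its enamel relatives (IBSP, DMP1, MEPE, DSPP, AMBN and ENAM), 4 had a probe and 0 reached the detection rule, so that SPP1 was the one measured gene of that group. Among 10 integrin subunits that form osteopontin receptors, 7 were tested and 3 lay lower. The alpha v subunit ITGAV had a ratio of 0.06 ± 0.15 (SE, n = 4 arrays) and the beta 3 subunit ITGB3 of -0.05 ± 0.16. The beta 6 subunit ITGB6 was at 0.10 ± 0.15, and at -0.01 without array 4. That fit weighs array 3 most, at -0.11, beside 0.10 and 0.08 on arrays 1 and 2. The largest ratio was that of ITGA5, the alpha 5 subunit of the fibronectin receptor, at 0.52 ± 0.22, with 0.03, 0.43, 1.38 and 0.24 on arrays 1 to 4. Its unadjusted p was 0.049 and its adjusted p 1.00 in limma, and without array 3 it was at 0.24. None of these receptor subunits shared the lower ratio of SPP1 beyond its error.

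Integrin signalling genes behaved likewise. Of 11 tested, 5 lay lower and 6 higher, between -0.13 for VCL, the adhesion protein vinculin, and 0.29 ± 0.16 for ILK, the integrin-linked kinase. Among 10 tested proteases and enzymes that act on osteopontin, 4 lay lower. F2, the precursor of thrombin, had -0.11, 0.50, -0.94 and -1.64 on arrays 1 to 4 and a ratio of -0.55 ± 0.19 (unadjusted p = 0.024, adjusted p = 1.00 in limma), with -0.73 without array 3 and -0.37 without array 4. Its low values were on the arrays with the slow-frozen pool in Cy3, whereas the lower SPP1 ratios were on arrays 1 and 2. The error and p of F2 leave out this difference between the dye orientations. Its fits without an array weigh the array left alone in its orientation most. PLAU, the urokinase activator of plasminogen, had 0.28 ± 0.26, of which 1.43 came from array 3. It was at -0.09 without that array and at -0.02 when median centring replaced loess.

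For hyaluronan, the other ligand of CD44, 3 of 10 genes of its synthesis and breakdown were tested. The hyaluronidase HYAL2 had -0.13 ± 0.17 and UGDH, which makes a sugar precursor, had 0.13 ± 0.15, while its other probes gave -0.20 and -0.15. The synthases HAS2 and HAS3 each had a probe that did not reach the detection rule. Other hyaluronan receptors and binders lay between -0.15 for TNFAIP6 and 0.08, with PTX3, a matrix protein of the expanding cumulus, at -0.10 ± 0.16. Other CD44 ligands lay between -0.15 ± 0.18 for the selectin SELP and 0.06, with fibronectin (FN1) at -0.12 ± 0.27 and array values from -1.41 to 0.99. With 1 array left out and the dye term kept, the fitted direction turned for HYAL2 (0.05 without array 4) and TNFAIP6 (0.10 without array 2). It also turned for PTX3 (0.06 without array 3), SELP (0.08 without array 1) and FN1 (0.13 without array 1 and 0.22 without array 4). In these fits the array left alone in its dye orientation weighed as much as the other pair together. A turn can therefore reflect this weighting as well as the array left out. PTX3 had -0.18, -0.32, -0.28 and 0.37 on arrays 1 to 4. FN1 was at 0.99 on array 2, which was alone in its orientation without array 1. Fits that left out both an array and the dye term were not run. In none of these groups did a gene reach an unadjusted p of 0.05.

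The cytoplasmic partners of CD44 had the widest spread of the groups. EZR, which encodes ezrin, had 1.59, -0.58, 2.36 and -0.27 on arrays 1 to 4 and a ratio of 0.78 ± 0.49, but it was at 0.12 without array 3, and its other probe gave -0.06. The membrane anchor ANK3 had 0.31 ± 0.25, and -0.07 without array 4. That fit weighs array 3 most, at -0.29, beside 0.27 and 0.04 on arrays 1 and 2. The ezrin relatives RDX and MSN had -0.25 ± 0.18 and -0.07 ± 0.16. The other tested probes of RDX gave 0.26 and 0.31, in the opposite direction, and those of MSN gave -0.10 and 0.11. Of 9 tested partners, 4 lay lower by their brightest probe. Among the proteases and inhibitors of CD44 cleavage, 7 of 10 lay lower. The highest was ADAM10, a sheddase of CD44, at 0.62 ± 0.15 (unadjusted p = 0.0047, adjusted p = 1.00 in limma). The ADAM10 ratio was 1.41 on array 1 and 1.02 on array 2, compared with 0.06 on array 3 and -0.02 on array 4, so that it was high in one dye orientation. The error and p of the fit leave out this difference between orientations. The 4 ratios were thus less alike than that error conveys. With mean spot and mean background signals the ADAM10 ratio was 0.12, in a setting under which fewer of all tested probes passed the thresholds.

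Of 8 tested splicing factors known to act on CD44, 4 lay lower, between -0.17 ± 0.25 for HNRNPM and 0.14 ± 0.19 for HNRNPA1, and both changed direction with the processing. HNRNPM was at 0.19 without array 3, and HNRNPA1 was at -0.09 without array 4 and at -0.19 with median centring. The HNRNPA1 fit without array 4 weighs array 3 most, at -0.45, beside 0.33 and 0.20 on arrays 1 and 2. The other tested HNRNPM probes lay between 0.02 and 0.37, in the opposite direction to its brightest probe. The epithelial splicing factors ESRP1 and ESRP2, which favour the long CD44 forms, had -0.06 ± 0.16 and 0.05 ± 0.15. The other ESRP1 probes gave 0.03 and 0.21. Transcription factors known at the SPP1 gene were tested for 15 of 18 and 9 lay lower. PGR, the progesterone receptor, had the lowest ratio at -0.33 ± 0.17, with 4 of 8 readings above the limit. POU5F1, the pluripotency factor OCT4, had the highest at 0.38 ± 0.16, with -0.13, 0.26, 0.94 and 0.45 on arrays 1 to 4, but it was at 0.08 with median centring. Neither reached an unadjusted p of 0.05 (0.094 and 0.054, limma).

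**Figure D5:**
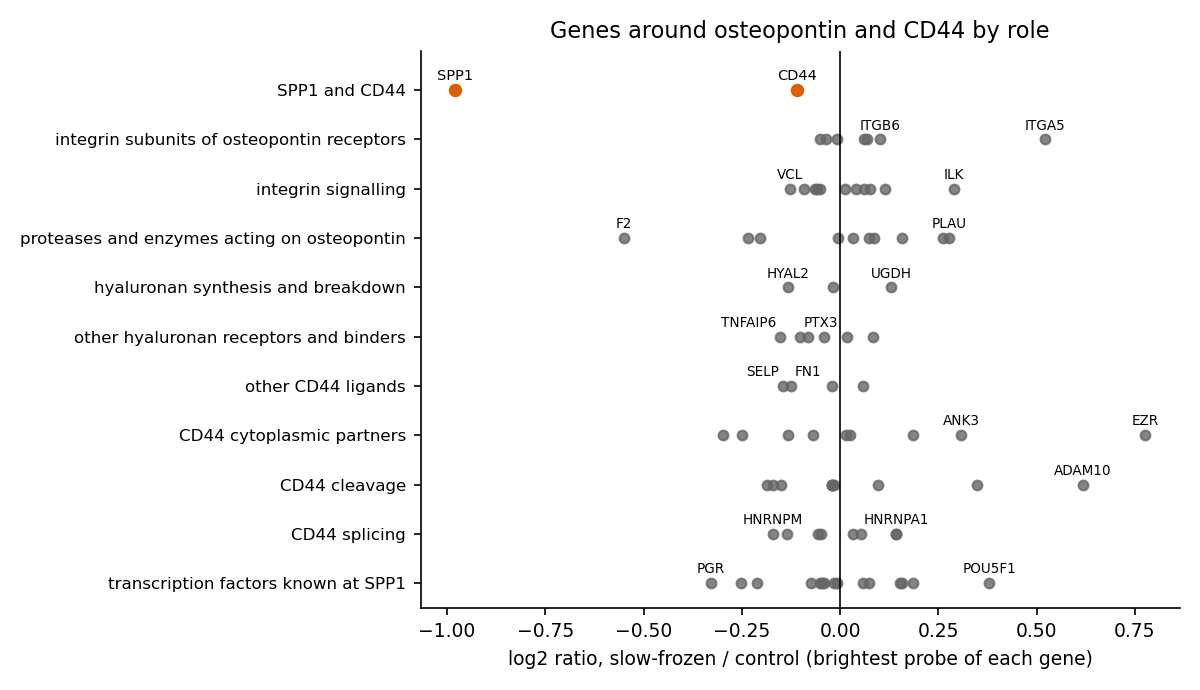
Log2 ratio of slow-frozen over control (horizontal axis) of the brightest tested probe of each gene, grouped by role (vertical axis), with SPP1 and CD44 in orange at the top. Only the genes named in the text by the fixed rule are labelled. The listed genes lay between -0.55 (F2) and 0.78 (EZR) on both sides of 0, and SPP1 at -0.98 lay below all of them.

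Cells other than those of the embryo can carry SPP1 and CD44, so markers of cumulus cells and leukocytes were read as well. Of 8 cumulus and granulosa markers, 2 (PTX3 and CYP19A1) were above the limit in all 8 readings. FSHR and INHBA were above it in 7, TNFAIP6 in 6, LUM in 4, and FOXL2 and AMH in 0. The net signal of the tested cumulus and granulosa markers summed to between 733 and 1530 in the slow-frozen pools. In the control pools it summed to between 772 and 1963. Of 7 leukocyte markers, 3 (PTPRC, CD68 and AIF1) were above the limit in all readings, while CSF1R was above it in 1 and CD14 in 2 of 8, and the sums were between 908 and 1589 in the slow-frozen and between 632 and 2137 in the control pools. The ranges of the groups overlapped for both lists. All sums given here are raw net signals from both dyes, with channel medians over all probes between 66 and 211. Their overlap therefore does not compare the groups within an array. Of the tested cumulus and granulosa markers, 4 of 6 had a ratio below 0, as SPP1 had, with a median of -0.12. Of all tested genes, 51.0% had a ratio below 0. The lowest marker was LUM, the matrix protein lumican, at -0.51 ± 0.22 with 4 of 8 readings above the limit. CYP19A1 at 0.06 ± 0.14 and INHBA at 0.06 ± 0.18 went the other way. Of the tested leukocyte markers, 4 of 5 had a ratio below 0, with a median of -0.09. Trophectoderm markers summed to between 84546 and 116521 in the slow-frozen and between 78795 and 109941 in the control pools, with 2 of 6 lower and a median ratio of 0.11. All 4 epiblast markers had a ratio above 0, as had 5795 of all 11834 tested genes, and the median of the markers was 0.50. Their sums lay between 5581 and 12198 in the slow-frozen and between 3554 and 9399 in the control pools. The ratios were 0.63 ± 0.22 for LIN28B, 0.82 ± 0.87 for NANOG, 0.38 ± 0.16 for POU5F1 and 0.07 ± 0.22 for SOX2. With median centring POU5F1 was at 0.08. The part of these cell types in the SPP1 ratio was not tested.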

How the data were processed

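RNA from pools of expanded blastocysts was amplified, coupled to Cy3 or Cy5 and hybridised to 4 two-colour EmbryoGENE arrays. The deposited scanner files hold spot and local background intensity (medians and means) per channel, not normalized by the authors. Their 14 closing lines of column statistics were left out. The deposited value table is on a log2 scale. Its columns (medians -0.0023, 0.0005, -0.0023 and 0.0017) correlated at 1.00 with log2 Cy5 over Cy3 after plain background subtraction and loess, so it was read as centred ratios not turned to a treatment, and 0 of its columns were left unused.

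In limma 3.58.1 (R 4.3.3), normexp with an offset of 50 was applied to the median intensities of all spots, followed by loess within arrays with control spots at weight 0. Slow-frozen over control ratios were fitted with a treatment and a dye term, eBayes and Benjamini-Hochberg adjustment over 30473 probes with at least 4 of 8 readings above the limit of detection. Single-channel levels used Aquantile scaling. The limits were between 44.8 and 173.2 for Cy5 and between 156.4 and 173.8 for Cy3. For 1 value per gene the brightest probe was taken. Of 43794 probes, 21790 had 1 symbol, 0 several and 22004 none, and 1524 received a current symbol through the ARS-UCD2.0 RefSeq annotation. No coordinates are given because the build of the array design was not given in the sources used here. Genes named were all SPP1 and CD44 probes, in each role group those past 1.5-fold with unadjusted p under 0.05 or otherwise the 2 with the largest ratio, and the 5 most like each of SPP1 and CD44. Outside this rule ITGAV, ITGB3, RDX, MSN, ESRP1, ESRP2, HAS2 and HAS3 were named after their values were seen. The ratios of LUM, CYP19A1, INHBA, LIN28B, NANOG and SOX2 were likewise given after their values were seen. Members and lists were chosen with earlier results of these data known. The code of the fit was checked on simulated ratios with independent normal errors, which does not measure its error rate on these arrays. Alternatives were other background corrections, normalizations, filters, probe rules, detection limits and spot summaries, the value table, no dye term and leaving out each array. Fits that left out an array kept the dye term. Figures were drawn with matplotlib 3.10.9.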

Additional observations from a re-analysis of the deposited data

Results flagged for a closer look

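Of 38 groups of 4 values checked, 3 held a value far from the other 3, where chance gives about 1 in 20. The CD44 reading of the slow-frozen pool on array 2 was 8.20 on the normalized log2 scale, and the other slow-frozen pools lay between 7.32 and 7.44. The control pool of the same array was also the highest of its group, at 8.25. The ratio of VCL was 0.15 on array 3 and between -0.25 and -0.18 on the other arrays. The ratio of NFAT5, named because its readings resembled those of SPP1, was -0.62 on array 2 and between -0.13 and -0.06 elsewhere.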

How the results depend on the processing

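The brighter SPP1 probe stayed negative under all alternatives, between -1.22 (normexp offset 10) and -0.37 (mean spot and mean background), and between -1.25 and -0.71 with an array left out. The dimmer SPP1 probe lay between -0.17 and -0.01, and between -0.38 and 0.19 with an array left out. CD44 lay between -0.14 and 0.042, its value with mean spot and mean background signals, and between -0.19 and -0.03 with an array left out. At the 99th percentile limit 5 readings of the brighter and 1 of the dimmer SPP1 probe passed.

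Probes past 1.5-fold with an unadjusted p under 0.05 numbered 39 lower and 84 higher in the main setting. They numbered 63 lower after plain subtraction with quantile normalization, 101 lower and 146 higher with offset 10, 492 lower and 25 higher with median centring (which moved the median of all probes to -0.08), and 3 lower and 14 higher with mean spot and mean background. Plain subtraction of the mean background gave 48 higher. With an array left out, 110 to 396 were lower, 184 to 547 higher and 0 to 1 passed the adjustment. Of listed genes, 1 was past these thresholds in the main setting, 2 with median centring, and 0 without background correction, with quantile normalization of all channels, with probes above the limit in all 8 readings or with each of the 3 mean-spot settings. With an array left out it was 0 to 6. Of listed genes, 45 of 83 lay lower in the main setting, 57 of 83 with median centring and 29 of 59 when all 8 readings had to pass. The cause of these shifts was not tested. The mean-spot settings were chosen after seeing the data. The fit is itself paired, on ratios within arrays. No paired analysis was possible beyond this, because arrays share no further pairing.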
